A study of Homo sapiens with 63 samples.

Results

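NFE2L2, NFE2L1, KEAP1, BACH1, MAFG and SQSTM1 encode the transcription factor NRF2, its relative NRF1, the inhibitor that holds NRF2 back, a competing repressor, a shared DNA-binding partner and the p62 scaffold. They were chosen by gene symbol, as 6 of the 58336 genes in the deposited count table, and all 6 were among the 19352 genes with enough counts to be tested. The RNA came from HEK293T, a standard cell line of human embryonic kidney origin, here with ectopic expression of the Halo protein tag. Per the design text, a Halo-binding precursor of an ibufenac or ibuprofen acyl glucuronide (AG) was given at 10 µM for 2 h, excess was washed out, and light (3 min at 365 nm, 5 mW/cm2) released the AG-drug. The 63 libraries form 7 arms: DMSO, the vehicle, and each of ibuprofen and ibufenac as a bolus, as a photocaged form and as a probe. Every arm has 3 libraries at each of 6, 12 and 18 h, which gives 21 groups. All of them are HEK293T cells, and no arm carries a labelled genetic change beyond the Halo tag. What sets the probe apart from the photocaged form is not in the labels, nor is it stated which arms received light, the bolus dose, or whether replicates came from separate cultures. The p-values then measure the spread between these libraries, which may be technical.

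NRF2 is made and destroyed all the time: KEAP1 presents it to a cullin 3 ubiquitin ligase, and reactive compounds that modify KEAP1 cysteines let NRF2 build up. NRF2 then pairs with a small MAF protein such as MAFG on antioxidant response elements, which BACH1 occupies as a repressor in its absence. The p62 protein can sequester KEAP1 for autophagy and is itself encoded by an NRF2 target, while NRF1 drives proteasome genes when proteasome capacity falls. Much of this control acts on protein rather than on RNA, so transcript levels do not report the activity of NRF2, KEAP1 or NRF1.

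The antioxidant response element is the sequence through which these factors act, so its core was searched for in the promoter windows of the members (RefSeq, GRCh38.p14, 250 bases before to 50 after a transcript start). The core was spelled TGACNNNGC, on the gene's strand or, as GCNNNGTCA, on the opposite strand. It was found in 13.3% of 35116 windows of all genes, and in at least 1 window of 16.1% of 27305 genes. Among the members only KEAP1 had matches, both in 1 of its 2 windows. NFE2L2, NFE2L1, BACH1, MAFG and SQSTM1 had none in theirs, which says only that these letters are not in these windows. Of 5 well-known NRF2 targets searched for comparison, NQO1 and SRXN1 had no match in the 1 window each has, HMOX1 was not in the promoter table, and GCLM and TXNRD1 had matches. The matches of KEAP1 are shown with those of GCLM (a subunit of the enzyme that starts glutathione synthesis) and TXNRD1 (thioredoxin reductase, 3 matches in 2 windows). Capitals mark the core, and each line reads along the gene's own strand.
KEAP1, chr19:10502807-10502835, minus strand: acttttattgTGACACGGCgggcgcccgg
KEAP1, chr19:10502784-10502812, minus strand: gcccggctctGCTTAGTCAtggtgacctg
GCLM, chr1:93909446-93909474, minus strand: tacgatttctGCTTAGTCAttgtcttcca
TXNRD1, chr12:104215670-104215698, plus strand: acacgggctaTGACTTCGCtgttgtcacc
TXNRD1, chr12:104215761-104215789, plus strand: gcgtccttcgGCTCCGTCAgttcccacag
TXNRD1, chr12:104286920-104286948, plus strand: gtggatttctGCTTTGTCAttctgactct
The cores of KEAP1 begin 54 and 31 bases before the start, that of GCLM 34 bases before it, and those of TXNRD1, in the order printed, 99, 8 and 102 bases before the start of their window's transcript. The second KEAP1 core and the GCLM core have the same 9 letters. A match is a description of the sequence and not a site that was measured here.

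In GENCODE 29 (GRCh38) NFE2L2 (ENSG00000116044) lies on chromosome 2 from 177227595 to 177392697, and NFE2L1 (ENSG00000082641) on chromosome 17 from 48048329 to 48061487. KEAP1 (ENSG00000079999) lies on chromosome 19 from 10486120 to 10503741, BACH1 (ENSG00000156273) on chromosome 21 from 29194071 to 29630751, MAFG (ENSG00000197063) on chromosome 17 from 81918270 to 81927714, and SQSTM1 (ENSG00000161011) on chromosome 5 from 179806398 to 179838078. Their annotated spans overlap other coding genes at NFE2L2 (AGPS), BACH1 (GRIK1), MAFG (SIRT7) and SQSTM1 (MGAT4B and MRNIP). The strand used in the authors' counting is not given in the sources used here, so reads from overlapping genes could not be told apart. The counts of NFE2L2 were not whole (tolerance 0.001) in 95.2% of libraries, which means that reads were shared out by estimation there. For the other 5 members that share was 0%.

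Library totals ran from 12.1 M to 38.4 M counts (M, mega), with a median of 19.6 M. A member had at least 305.6 counts in every library. Genes that HEK293T cells express (8 markers, among them VIM, KRT8, KRT18, NEFL and PAX2) summed to 426 to 691 CPM (counts scaled to a common library size) in each library. Markers of blood (4 genes, none tested) summed to at most 0.335 CPM, of hepatocytes (6 genes) to at most 2.67, of endothelium (3 genes) to at most 1.8, of epithelium (4 genes) to at most 5.57 and of fibroblasts (5 genes) to at most 8.87. Replicates 2 and 3 of the ibufenac bolus at 6 h had the lowest mean correlation with their own group (0.955 and 0.958). Libraries also differed in how log counts followed the GC content of genes. The lowest correlations of a library's deviations with GC were -0.36 and -0.36, in replicates 1 and 2 of the ibuprofen probe at 6 h, and the highest was 0.26.

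Levels can be compared between the genes only per length, for which the deposited FPKM (fragments scaled to transcript length and library size) were used. SQSTM1 was the most abundant member at 91.2 ± 14.7 FPKM (SD, n = 63 libraries), with the lowest library at 58.6, the median at 87.8 and the highest at 136. NFE2L1 followed at 27.9 ± 2.95 FPKM, then BACH1 at 23.4 ± 2.81, KEAP1 at 22.9 ± 2.78, MAFG at 17.5 ± 2.38 and NFE2L2 at 11.8 ± 2.25. SQSTM1 was above NFE2L1 in 63 of 63 libraries, NFE2L1 above BACH1 in 57, KEAP1 above MAFG in 63 and MAFG above NFE2L2 in 60. BACH1 and KEAP1 did not differ beyond their spread: BACH1 was the higher in 37 of 63 libraries. The RNA of NRF2 itself was thus the least abundant member and that of p62 the most abundant.

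**Figure D1:**
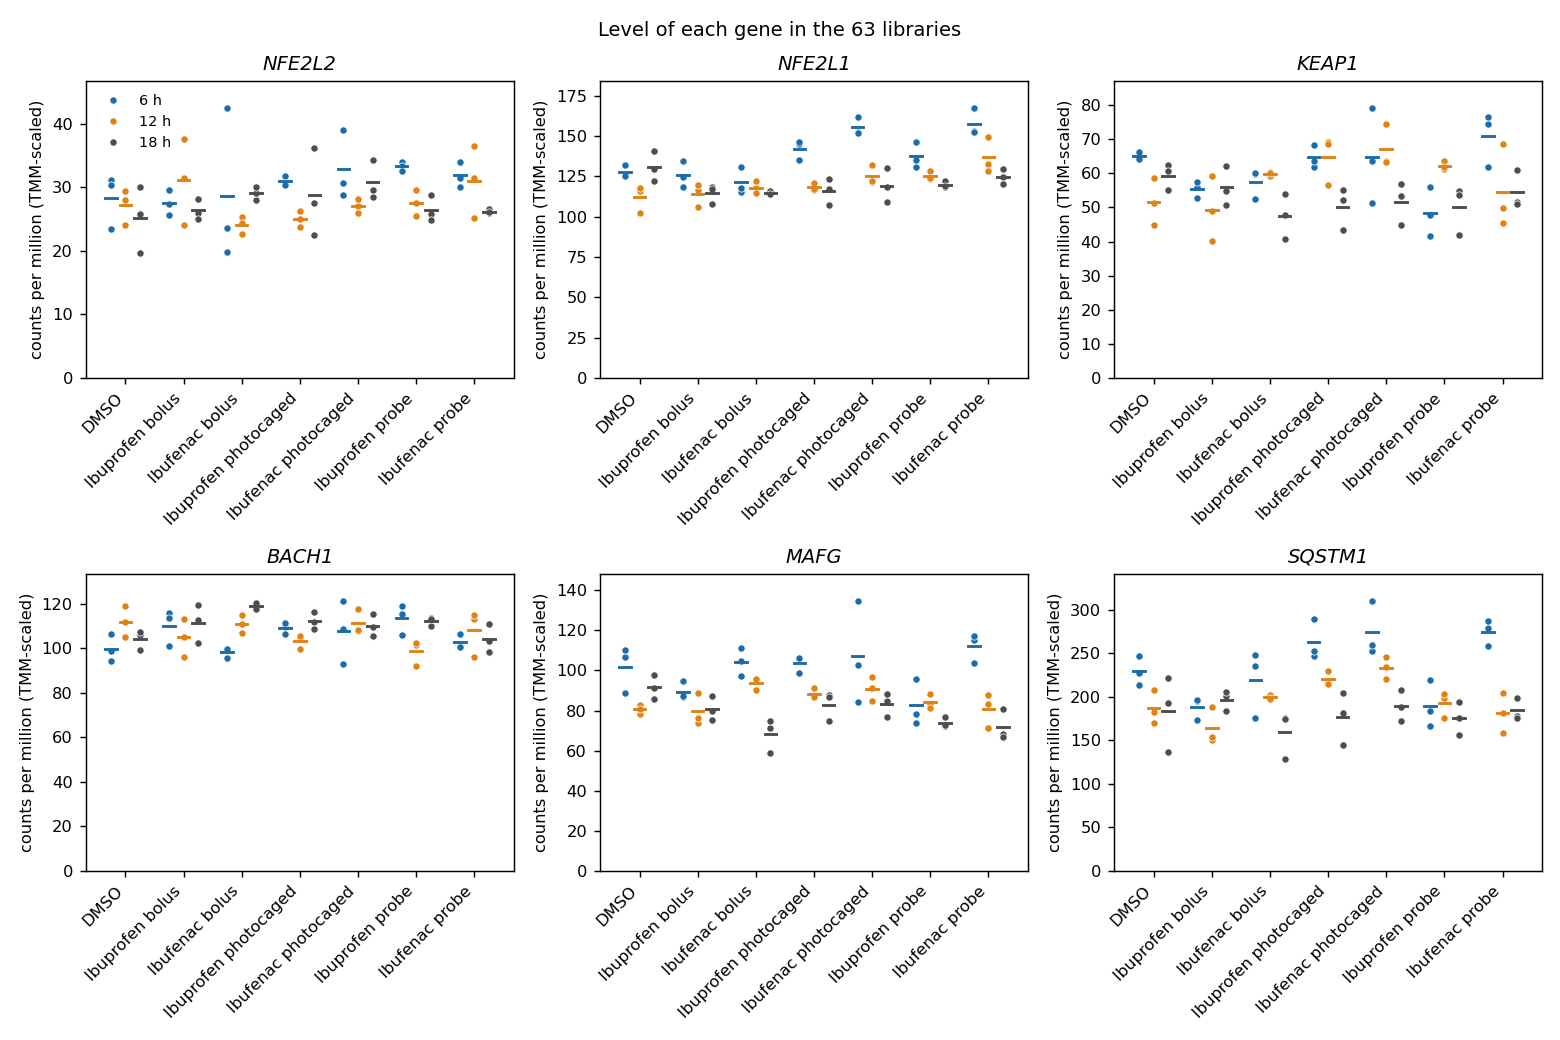
CPM of each gene (vertical axis, TMM-scaled, starting at 0) in the 63 libraries, by arm (horizontal axis) and time (colour). Points are libraries and short lines are means of 3. NFE2L1 has its highest mean in the ibufenac probe at 6 h (157.7 CPM), while BACH1 stays between 92.16 and 121.3 CPM.

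All further levels, unless given as FPKM, are CPM scaled by library size factors (TMM), which compare a gene across libraries but not with other genes. BACH1 ranged from 92.2 to 121 CPM over the 63 libraries (1.32-fold) and NFE2L1 from 102 to 167 (1.63-fold), the narrowest ranges in CPM. In FPKM the ranges were 1.71-fold for BACH1 and 1.66-fold for NFE2L1, so their order turned with the scaling. KEAP1 ranged from 40.1 to 79.1 CPM (1.97-fold), NFE2L2 from 19.7 to 42.4 (2.16-fold), MAFG from 58.9 to 135 (2.29-fold) and SQSTM1 from 129 to 310 (2.41-fold). Over the means of the 21 groups the CPM ranges were narrower, from 1.21-fold for BACH1 to 1.72-fold for SQSTM1. In CPM, NFE2L1, KEAP1, MAFG and SQSTM1 had their highest group mean in the ibufenac probe at 6 h (157.7, 70.98, 112 and 274.5), with SQSTM1 at 274.2 in photocaged ibufenac at 6 h. In FPKM none of the 4 was highest there: NFE2L1 (33.35), MAFG (20.92) and SQSTM1 (120.2) were highest with photocaged ibufenac at 6 h and KEAP1 (25.93) with photocaged ibuprofen at 12 h. In CPM, KEAP1, MAFG and SQSTM1 had their lowest in the ibufenac bolus at 18 h (47.5, 68.3 and 160), the group in which BACH1 was highest (119 CPM).

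Each drug arm was first compared with DMSO over the 3 times (9 libraries against 9), to see whether any form of either drug changed the transcripts of this regulatory circuit. In the reported edgeR fit only NFE2L1 did so, and only with the ibufenac probe. There it rose by 0.18 ± 0.04 on the log2 scale (SE, adjusted p = 0.00104, edgeR with Benjamini-Hochberg adjustment over all tested genes). With GC and length trends removed NFE2L1 also passed with photocaged ibufenac (0.13, adjusted p = 0.0202). In such bulk libraries fewer cells of a kind and less RNA per cell cannot be told apart. The 6 arms share the DMSO libraries. Of the 36 tests of members against DMSO, 1 passed at an adjusted p of 0.05 in edgeR, and DESeq2 called 3. Without adjustment 5 of them had p under 0.05. Over all tested genes the share called was 0.0258% with the ibuprofen bolus, 0.0103% with the ibufenac bolus, 4.28% with photocaged ibuprofen and 7.49% with photocaged ibufenac. It was 8.43% with the ibuprofen probe and 13.2% with the ibufenac probe, so 1 of 6 members in the last arm is near the background.

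NFE2L2, the gene of NRF2, did not pass in any of these arms. Its difference from DMSO ran from 0.01 to 0.17, the largest being 0.17 ± 0.10 with photocaged ibufenac (95% interval -0.02 to 0.36). At 6 h its levels were 31.2, 23.4 and 30.4 CPM in DMSO, 39.0, 30.6 and 28.8 with photocaged ibufenac and 34.0, 33.3 and 32.6 with the ibuprofen probe. The DMSO and treated libraries overlap in the first of these arms, and in the second the treated libraries lie above all 3 of DMSO without passing (0.23 ± 0.17). With the ibufenac bolus at 6 h NFE2L2 was at 23.6, 19.8 and 42.4 CPM, so its lowest and highest values there span nearly the range of the whole study.

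KEAP1 and BACH1, the inhibitor and the repressor, moved little on average. KEAP1 differed from DMSO by -0.13 (ibuprofen probe) to 0.06 (photocaged ibufenac) and BACH1 by -0.0028 (ibufenac probe) to 0.06 (photocaged ibufenac). SQSTM1 was at 0.21 ± 0.07 above DMSO with photocaged ibufenac without passing (adjusted p = 0.0834). It was called there by DESeq2 (adjusted p = 0.0379) and after GC and length trends were removed (0.25, adjusted p = 0.000353), where photocaged ibuprofen also passed (0.17, adjusted p = 0.0249). MAFG was at -0.18 ± 0.06 with the ibuprofen probe (adjusted p = 0.052), a value that DESeq2 placed past the threshold (adjusted p = 0.0328). MAFG also passed there without a count filter (adjusted p = 0.0158), with the replicate block (0.0411) and with only the groups compared (0.0258). The same held without DMSO 18 h replicate 3 and ibufenac bolus 18 h replicate 3 (0.0319). It did not pass with RLE factors, with GC and length trends removed or in limma on FPKM.

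**Figure D2:**
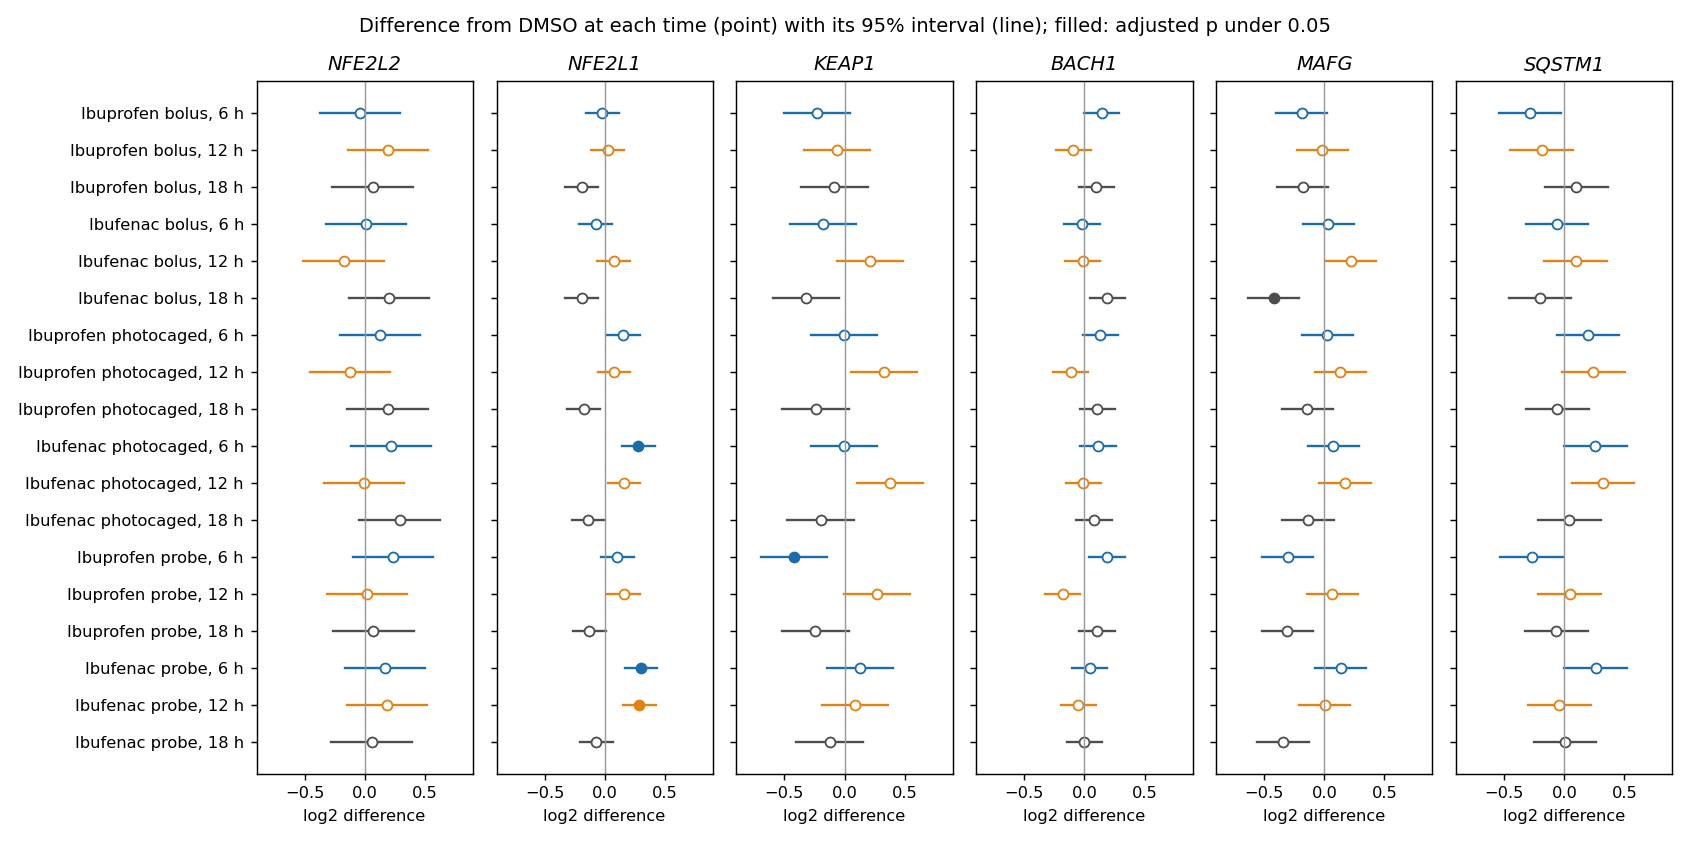
Log2 difference from DMSO (horizontal axis) at each time for the 6 genes in the 6 drug arms, with 95% intervals as lines and filled points where the adjusted p was under 0.05. Of the 108 points 5 are filled: 3 of NFE2L1, all above 0, and 1 each of KEAP1 and MAFG, both below 0.

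At single times (3 libraries against 3) NFE2L1 accounted for 3 of the 5 members' calls among 108 tests, in which 24 had an unadjusted p under 0.05. Summed over these 18 comparisons, 2.87% of tests on all genes were called. In DMSO at 6 h NFE2L1 was at 125.6, 132.0 and 125.4 CPM. With photocaged ibufenac it was at 152.4, 152.0 and 161.6 and with the ibufenac probe at 153.2, 152.6 and 167.3, so neither group overlaps DMSO. The share of all genes without such overlap was not counted, here or in later comparisons. The differences were 0.28 ± 0.07 (adjusted p = 0.00929, edgeR) and 0.30 ± 0.07 (adjusted p = 0.00114), beside 3.03% and 12.7% of all genes called. With the ibuprofen forms at 6 h it was at 135.0, 145.0 and 146.5 (photocaged) and at 130.5, 135.4 and 146.2 (probe), without passing in edgeR. In limma on FPKM NFE2L1 did pass with the ibuprofen probe at 6 h (0.26, adjusted p = 0.0436). The ibufenac probe had 0.26 (adjusted p = 0.0325) in that fit.

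At 12 h NFE2L1 was at 115.8, 102.4 and 117.6 CPM in DMSO and at 132.7, 128.4 and 149.5 with the ibufenac probe (0.29 ± 0.07, adjusted p = 0.00534, 4.51% of genes called). This call ended without DMSO 12 h replicate 2, the lowest library (0.23, adjusted p = 0.0822), or without ibufenac probe 12 h replicate 3 (0.22, adjusted p = 0.0757). It also ended with no count filter (adjusted p = 0.069), in limma on FPKM (adjusted p = 0.0752) and with only the groups compared (adjusted p = 0.118). The photocaged call at 6 h ended without DMSO 6 h replicate 3 (adjusted p = 0.0537), with no count filter (adjusted p = 0.0699) and with only the groups compared (adjusted p = 0.111). By 18 h the groups overlapped, at 140.9, 122.0 and 129.5 in DMSO and 129.8, 124.4 and 120.2 with the ibufenac probe.

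The other single-time calls in the reported fit were falls. KEAP1 fell with the ibuprofen probe at 6 h, from 66.4, 64.3 and 64.2 CPM in DMSO to 41.7, 47.7 and 56.0 (-0.42 ± 0.14, adjusted p = 0.0371, 11.4% of genes called). The 3 treated libraries lie below all 3 of DMSO. The value was -0.08 (adjusted p = 0.664) after GC and length trends were removed and -0.18 (adjusted p = 0.397) in limma on FPKM, and the call held in 1 of 6 fits that left out a library, the one without ibuprofen probe 6 h replicate 3. MAFG fell with the ibufenac bolus at 18 h, from 97.8, 91.2 and 85.7 CPM to 71.2, 74.9 and 58.9 (-0.42 ± 0.11, adjusted p = 0.0181, 5.03% of genes called). It did not pass without ibufenac bolus 18 h replicate 3, the lowest of these (-0.33, adjusted p = 0.224), or without DMSO 18 h replicate 1 (-0.37, adjusted p = 0.0717). MAFG also did not pass in limma on FPKM (adjusted p = 0.0546) or with only the groups compared (adjusted p = 0.25). Some alternatives added calls with the ibuprofen probe at 6 h. MAFG was lower there in DESeq2 (-0.28, adjusted p = 0.0427), with no count filter (0.0126) and with the replicate block (0.0381). The same held without DMSO 18 h replicate 3 and ibufenac bolus 18 h replicate 3 (0.0399). BACH1 was higher there in DESeq2 (0.21, adjusted p = 0.0345) and in limma on FPKM (0.39, adjusted p = 0.0459).

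The forms of a drug were then compared without the DMSO libraries, averaged over the times. Of 36 tests of members 4 passed, all higher in a light-releasable or probe form than in the bolus. SQSTM1 was higher with the photocaged form than with the bolus for ibuprofen (0.25 ± 0.07, adjusted p = 0.0461, 3.43% of genes called) and for ibufenac (0.26 ± 0.07, adjusted p = 0.023, 6.05% called). At 6 h it was at 173.0, 194.8 and 196.3 CPM in the ibuprofen bolus and at 246.4, 289.7 and 253.0 with photocaged ibuprofen. At 12 h the values were 188.0, 149.9 and 153.6 against 217.7, 215.2 and 229.5. At both times the groups do not overlap, whereas at 18 h they do (183.9, 201.4 and 205.2 against 180.8, 204.3 and 144.8).

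For ibufenac SQSTM1 was at 202.3, 198.3 and 197.6 CPM in the bolus and at 245.6, 233.7 and 220.6 in the photocaged form at 12 h, again without overlap. At 6 h (234.9, 248.6 and 175.3 against 252.8, 259.5 and 310.4) the groups do not overlap either, and at 18 h (175.1, 174.5 and 129.0 against 172.7, 207.3 and 187.7) they do. NFE2L1 was also higher than in the ibufenac bolus, by 0.17 ± 0.04 in the photocaged form (adjusted p = 0.00485, but 0.12 and adjusted p = 0.195 in limma on FPKM) and by 0.24 ± 0.04 as the probe (adjusted p = 1.51e-05, 11.2% of genes called). No member passed for the ibuprofen probe against its bolus (3.7% of genes called, 1 member with an unadjusted p under 0.05). None passed for the probe against the photocaged form of ibuprofen (0.0982% called, 2 unadjusted) or of ibufenac (2.68% called, 0 unadjusted), and DESeq2 called none in these 3 comparisons. The SQSTM1 difference for ibuprofen kept its call in 4 of 18 fits that left out a library (photocaged 6 h replicate 1, bolus 12 h replicate 1, bolus 18 h replicate 2 or photocaged 18 h replicate 3), with adjusted p-values over the 18 fits from 0.0168 to 0.141, and lost it in limma on FPKM (adjusted p = 0.0511). For ibufenac it kept it in 14 of 18, and lost it without replicate 3 of the bolus at 6 h or 18 h, photocaged 6 h replicate 3 or photocaged 18 h replicate 2.

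Ibufenac lacks the methyl group next to the carboxylic acid of ibuprofen, and the pair was compared within each form at matched times. In the bolus and photocaged forms no member passed at 6, 12 or 18 h or on average, in edgeR or in DESeq2. Without a count filter SQSTM1 passed in the bolus at 12 h (0.31, adjusted p = 0.0174) and, with the opposite sign, at 18 h (-0.32, adjusted p = 0.00634). At single times 2, 3 and 2 members had an unadjusted p under 0.05 for the bolus and 0 for the photocaged form. In the photocaged form at 6 h, where the labels give the pair the same form and time, the difference was 0.13 for NFE2L1 (95% interval -0.01 to 0.26), -0.0023 for KEAP1 (-0.28 to 0.27), 0.05 for MAFG (-0.16 to 0.26) and 0.06 for SQSTM1 (-0.20 to 0.32). On average 0% of all genes were called for the bolus, 0.0362% for the photocaged form and 2.82% for the probe. No member passed among these 18 averaged tests, although 4 did before adjustment (p under 0.05). DESeq2 called 1, NFE2L1 in the probe form (0.14, adjusted p = 0.0166). The nearest in edgeR was the same one (0.13 ± 0.04, adjusted p = 0.0534). The drug difference as probe minus that as photocaged form was not called for any member (0.031% of genes called, 0 of 6 with an unadjusted p under 0.05, none by DESeq2).

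**Figure D3:**
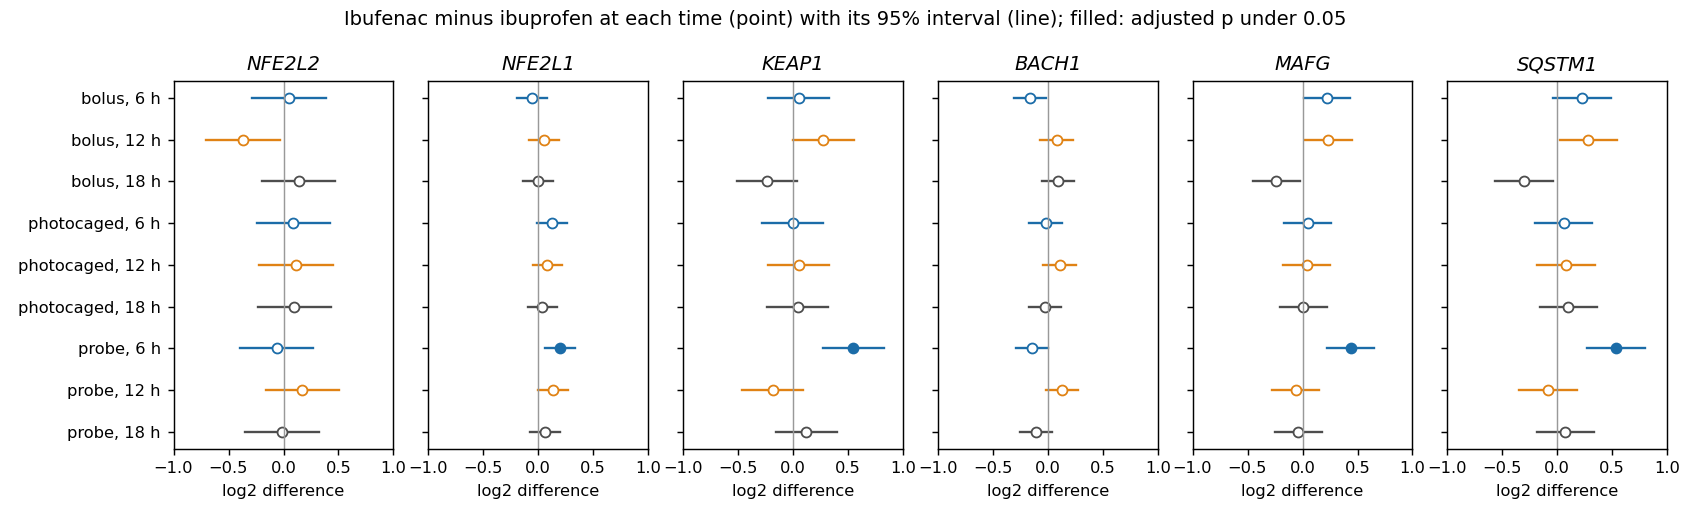
Log2 difference of ibufenac minus ibuprofen (horizontal axis) for the 6 genes in each form and at each time, with 95% intervals as lines and filled points where the adjusted p was under 0.05. The 4 filled points are NFE2L1, KEAP1, MAFG and SQSTM1 as the probe at 6 h, and none are filled in the bolus or the photocaged form.

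As the probe at 6 h the drugs differed at 4 of the 6 members, all higher with ibufenac. SQSTM1 was at 166.2, 183.6 and 219.3 CPM with the ibuprofen probe and at 278.5, 286.6 and 258.3 with the ibufenac probe (0.53 ± 0.13, adjusted p = 0.00174, edgeR). MAFG was at 73.8, 78.1 and 95.9 CPM against 115.3, 117.0 and 103.6 (0.44 ± 0.11, adjusted p = 0.00161). KEAP1 was at 41.7, 47.7 and 56.0 CPM against 61.9, 74.5 and 76.6 (0.55 ± 0.14, adjusted p = 0.00235). The 3 genes have no overlap between the groups, a trait that was not counted over all genes. NFE2L1 rose from 130.5, 135.4 and 146.2 CPM to 153.2, 152.6 and 167.3 (0.20 ± 0.07, adjusted p = 0.0254), also without overlap. NFE2L2 (-0.06 ± 0.17) and BACH1 (-0.14 ± 0.07, adjusted p = 0.159) did not pass.

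These calls stand against 23.6% of all genes called in the same comparison (12.9% higher and 10.7% lower with ibufenac). Summed over the 9 drug comparisons at single times, 3.1% of tests were called. The differences followed GC content, with a correlation of 0.36 across 19319 genes, which are not independent. The members that were higher are GC-rich: KEAP1 has 60.3% GC in its transcript and lies at the 87.9th percentile of the tested genes, SQSTM1 58.0%, MAFG 57.2% and NFE2L1 55.2%. NFE2L2 (45.6%) and BACH1 (38.6%) are not. After each library's trends with GC content and length were removed, MAFG remained called at 0.23 (adjusted p = 0.0254), SQSTM1 was at 0.23 (adjusted p = 0.0604), NFE2L1 at 0.13 (adjusted p = 0.216) and KEAP1 at 0.05 (adjusted p = 0.752). The trend-removed fit called 2782 of the 19352 tested genes in this comparison, where the reported fit called 4573. In the deposited FPKM, on which the median gene was at -0.19 in this comparison, SQSTM1 (0.41, adjusted p = 0.00993, limma) and MAFG (0.29, adjusted p = 0.0214) passed. The limma fit called 4829 of the tested genes. Without 1 library at a time, the calls of KEAP1, MAFG and SQSTM1 held in 6 of 6 fits and that of NFE2L1 in 3 of 6, ending without ibuprofen probe 6 h replicate 1 or 2 or ibufenac probe 6 h replicate 3. That of NFE2L1 also ended with no count filter (adjusted p = 0.0675). In the FPKM, KEAP1 (0.16, adjusted p = 0.344) and NFE2L1 (-5e-04, adjusted p = 0.998) did not. The pair gave no member call as the probe at 12 h (1.92% of genes called, 0 members with an unadjusted p under 0.05) or at 18 h (0% called, 0 members unadjusted), and DESeq2 called none there.

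To ask whether effects changed over time, the 12-degree-of-freedom interaction of arm and time was tested. It was called for NFE2L1 (adjusted p = 0.0141), MAFG (adjusted p = 0.0142), SQSTM1 (adjusted p = 0.0229) and KEAP1 (adjusted p = 0.0235). It was not called for BACH1 (adjusted p = 0.0533) or NFE2L2 (adjusted p = 0.532). BACH1 was called as well in DESeq2 (adjusted p = 0.0114), with RLE factors (0.0375), with the replicate block (0.0307) and in limma on FPKM (0.0438). The background was 22.8% of genes, and with GC and length trends removed only NFE2L1 remained called. In limma on FPKM KEAP1, MAFG and SQSTM1 were lost, and with no count filter NFE2L1 was (adjusted p = 0.0761). Differences at 6 h minus those at a later time, chosen after the data were seen, located part of this. The difference of NFE2L1 from DMSO at 6 h minus that at 18 h was 0.42 ± 0.10 with photocaged ibufenac (adjusted p = 0.019, 0.636% of genes called) and 0.37 ± 0.10 with the ibufenac probe (adjusted p = 0.00866, 7.98% called). In limma on FPKM these values did not pass (0.30, adjusted p = 0.283, and 0.22, adjusted p = 0.276). At 18 h NFE2L1 was at -0.14 and -0.07 from DMSO in these arms, without passing. For MAFG with the ibufenac probe the 6 h minus 18 h value was 0.48 ± 0.15 (adjusted p = 0.036), made up of 0.13 at 6 h and -0.35 at 18 h, neither of which passed, and the adjusted p was 0.118 in limma. Most of this value lies in the lower level at 18 h (means of 72.0 CPM against 91.6 in DMSO). The 18 h difference passed in DESeq2 (adjusted p = 0.0318) and with GC and length trends removed (0.0211). It also passed without a count filter (0.0124) and with the replicate block (0.0484), but in none of the other alternatives.

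The drug difference as the probe was larger at 6 h than at 12 h for KEAP1 (0.73 ± 0.19, adjusted p = 0.00442), SQSTM1 (0.62 ± 0.18, adjusted p = 0.0112) and MAFG (0.50 ± 0.15, adjusted p = 0.0119), and lower for BACH1 (-0.28 ± 0.10, adjusted p = 0.0492), beside 21.1% of genes called. With GC and length trends removed none of these 4 passed. In limma on FPKM KEAP1 and MAFG were lost as well. BACH1 was also lost with no count filter, with only the groups compared and without both 18 h libraries named above. Against 18 h only MAFG passed (0.48 ± 0.15, adjusted p = 0.0491, 5.46% called), which ended with the trends removed (adjusted p = 0.0841) and in limma on FPKM. In DMSO alone no member was called between 6 h and 12 h (3.82% of genes called, 5 members with an unadjusted p under 0.05, 1 by DESeq2) or between 6 h and 18 h (17.5% called, 1 unadjusted, 0 by DESeq2). The largest DMSO differences were MAFG at 12 h (-0.34 ± 0.11, adjusted p = 0.0568) and SQSTM1 at 18 h (-0.32 ± 0.13, adjusted p = 0.084).

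Across the 21 group means of log2 CPM, KEAP1, MAFG and SQSTM1 moved together, with Pearson correlations of 0.79 (KEAP1 and MAFG), 0.86 (KEAP1 and SQSTM1) and 0.86 (MAFG and SQSTM1). Within groups, over deviations of libraries from their group means, they were 0.68, 0.66 and 0.72, so the likeness is also present between replicates. NFE2L1 followed SQSTM1 at 0.71, and BACH1 ran against KEAP1 at -0.55 (-0.52 within groups). The 4 genes that correlate are GC-rich, the points share the libraries, and the part of GC content in the likeness was not tested. Of 14504 genes with a mean of at least 1 CPM, those most like NFE2L1 were MTHFD2 (0.94), COIL (0.92), ATF4 (0.90), SND1 (0.89) and PSAT1 (0.89). For SQSTM1 they were P4HB (0.95), SLC3A2 (0.92), SRA1 (0.91), SLC7A5 (0.91) and GMPPB (0.91). ZNF48 (0.95), CRELD2, GCAT, ENTPD6 and PYGB were most like KEAP1, and MEPCE (0.92), ST6GALNAC6, RRP9, SUV39H1 and DDX56 most like MAFG. NFE2L2 (PDCD4 0.85, then PREPL, UBXN2B, SEC31A and COG3) and BACH1 (UBE2E1 0.80, then KIAA1586, ATXN3, CPEB4 and B3GALNT2) had weaker nearest neighbours.

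The genes that these factors act on were followed in written lists, chosen with earlier results of these data known. Of 30 NRF2 targets 26 were tested. With photocaged ibuprofen 6 rose and 0 fell, beside 1.98% of all genes rising and 2.3% falling. With photocaged ibufenac 11 rose and 0 fell, beside 4.13% and 3.36%. With the ibuprofen probe 2 rose and 2 fell, beside 3.81% and 4.61%, and with the ibufenac probe 6 rose and 3 fell, beside 5.87% and 7.31%. The median difference of the list was 0.18, 0.16, 0.00 and 0.07 in these arms, beside -0.0005, -0.0022, -0.0062 and -0.0095 over all tested genes. In the same arms the averaged differences of NFE2L2, the gene of NRF2, were 0.07, 0.17, 0.11 and 0.14, none of them called.

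HMOX1, which degrades heme, rose by 0.64 ± 0.09 with photocaged ibuprofen (adjusted p = 1.67e-06, edgeR) and by 0.87 ± 0.09 with photocaged ibufenac, but fell with the ibuprofen probe (-0.32 ± 0.09, adjusted p = 0.014). The average for photocaged ibuprofen was made up of 1.22 at 6 h, 0.76 at 12 h and -0.07 at 18 h, the last without passing. GCLM, whose promoter core is printed above, rose on average in all 4 arms, by 0.51, 0.64, 0.26 and 0.22. With the ibufenac probe it was not higher at 6 h (-0.12, not passing) and passed at 12 h (0.35) and 18 h (0.44). SLC7A11, the cystine importer subunit, did so too, by 0.33, 0.60, 0.49 and 0.68, although at 12 h with photocaged ibuprofen it was at -0.09, without passing. TXNRD1 rose by 0.32 and 0.56 with the photocaged forms and by 0.12 ± 0.04 with the ibufenac probe, where it was at -0.0055 at 6 h and passed at 12 h alone (0.23). NQO1, a quinone reductase, passed with photocaged ibufenac (0.76 ± 0.16), and SRXN1, which repairs peroxiredoxins, fell with the ibufenac probe (-0.20 ± 0.06) and passed in no photocaged arm. That fall lay at 6 h (-0.63, 28.69 against 44.52 CPM), while at 12 h and 18 h SRXN1 was at 0.04 and -0.0092, without passing.

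**Figure D4:**
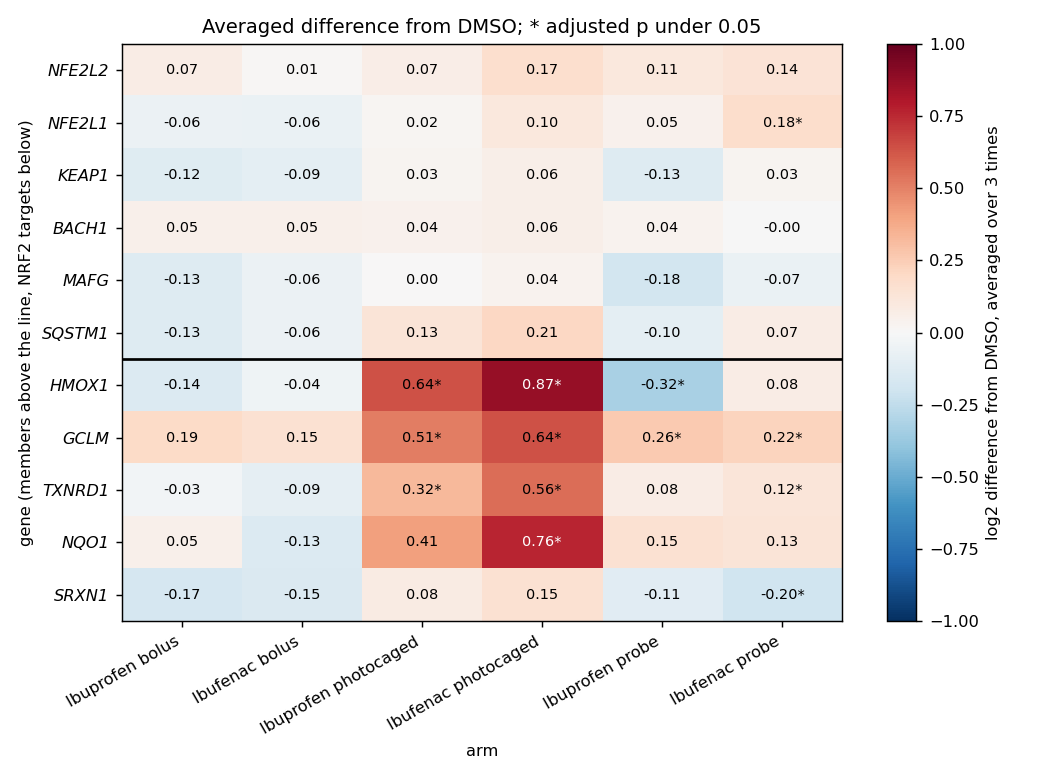
Log2 difference from DMSO averaged over 3 times (colour, with the value in each cell) in the 6 drug arms, for the 6 genes above the line and 5 NRF2 targets below it. An asterisk marks an adjusted p under 0.05. HMOX1 and GCLM have 0.87 and 0.64 with photocaged ibufenac, where none of the 6 genes is marked.

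Genes of heme and iron handling that BACH1 represses (6, of which 5 are also in the NRF2 list) rose in 3, 4, 1 and 3 cases in the order photocaged ibuprofen, photocaged ibufenac, ibuprofen probe and ibufenac probe. Over all tested genes 1.98%, 4.13%, 3.81% and 5.87% rose in these arms. One of the 6, HMOX1, fell with the ibuprofen probe, beside 4.61% of all genes falling. FTH1, the ferritin heavy chain, rose with photocaged ibufenac (0.30 ± 0.09) and the ibufenac probe (0.28 ± 0.09), and the heme transporter SLC48A1 with the latter (0.55 ± 0.12). Of 15 autophagy receptors and partners of p62, 2, 4, 2 and 5 rose and 0 fell. Beside them stand the same shares of all genes rising, with 2.3%, 3.36%, 4.61% and 7.31% falling. GABARAPL1 rose in 3 of these arms (0.30, 0.39 and 0.33, not passing with the ibuprofen probe), WIPI1 with both ibufenac forms (0.56 and 0.45), OPTN likewise (0.23 and 0.27), and CALCOCO2 with the probes (0.20 and 0.14).

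Of 34 proteasome genes, which NRF1 drives, 10 fell and 0 rose with the ibufenac probe, the arm in which NFE2L1 RNA rose, and 4 fell with the ibuprofen probe, beside 7.31% and 4.61% of all genes falling, while 0 changed with photocaged ibuprofen and 1 rose with photocaged ibufenac. PSMA3 (-0.25 ± 0.04, adjusted p = 2.59e-05), PSMD1 (-0.23 ± 0.04), POMP (-0.22 ± 0.05, with 0.10 at 18 h) and PSMB7 (-0.20 ± 0.05) fell with the ibufenac probe. Of 8 genes that process NRF1 or bind it, OGT, which adds sugars to it, fell on average in all 4 arms (-0.33, -0.28, -0.17 and -0.12). At 18 h OGT was at 336.5, 336.9, 337 and 332.7 CPM in these arms against 337.7 in DMSO, so the falls lay at the earlier times. SEL1L, of the degradation complex of the endoplasmic reticulum, rose with both ibufenac forms (0.13 and 0.17), FBXW7 with the photocaged forms (0.19 and 0.18), and HCFC1 fell with the ibuprofen probe (-0.39 ± 0.09, with 0.17 at 12 h).

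Of 9 genes of the KEAP1 and cullin 3 ligase and its partners, 0 changed with the photocaged forms, and 2 and 3 fell with the ibuprofen and ibufenac probes. Over all tested genes 4.61% and 7.31% fell with these probes, and 3.81% and 5.87% rose. PGAM5, a mitochondrial phosphatase bound by KEAP1, fell by 0.23 and 0.17 and AMER1 by 0.16 and 0.19, and KPNA6 fell with the ibufenac probe (-0.11 ± 0.03). With the ibufenac probe AMER1 was at 24.81 against 34.31 CPM in DMSO at 6 h. It was closer to DMSO at 12 h (33.01 against 34.15) and 18 h (32.22 against 33.2). Of 7 genes of KEAP1-independent NRF2 turnover, BTRC rose with the ibuprofen probe (0.14 ± 0.05, adjusted p = 0.0491). With the ibufenac probe FBXW11 rose (0.09 ± 0.03, adjusted p = 0.049) and CUL1 fell (-0.14 ± 0.04, with 0.08 at 18 h). In the family of NRF2 and the small MAF proteins, 4 of 5 further genes were tested, of which MAFF fell with the ibuprofen probe (-0.38 ± 0.12) and NFE2L3 with the ibufenac probe (-0.37 ± 0.11). NFE2L3 was at 4.326 against 10.32 CPM in DMSO at 6 h (-1.25), and at -0.0087 and 0.15 at 12 h and 18 h, without passing. None of the 8 lists had a called member in either bolus arm, where 0.0258% (ibuprofen) and 0.0103% (ibufenac) of all tested genes were called.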

How the data were processed

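The authors deposited a table of expected counts and a table of FPKM per Ensembl gene for 63 libraries of ribosomal-RNA-depleted, stranded total RNA, per the labels' protocols and the file headers. For the aligner, the counter, its strand setting and the build, the entry is "not given in the sources used here". Expected counts were rounded to whole numbers. Symbols came from current names (57754 genes) or GENCODE 29 (462), and 120 genes had none. Samples were grouped by arm and time from their labels.

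In R 4.3.3, edgeR 4.0.16 fitted its quasi-likelihood model with 21 group means and TMM factors (0.908 to 1.11) to genes kept by filterByExpr at a minimum count of 10. There were 42 residual degrees of freedom. Calls have a Benjamini-Hochberg adjusted p under 0.05 over all 19352 tested genes, and tests are two-sided. The code was tested on simulated data.

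The members and gene lists were chosen with earlier results of these data known. Besides the members, the text names HMOX1, GCLM, TXNRD1, NQO1 and SRXN1, up to 4 called genes per list by largest averaged change, and the 5 genes most correlated with each member. Alternatives were RLE factors, no count filter, the replicate number as a block, removal of GC and length trends, limma 3.58.1 on log2(FPKM + 0.1), DESeq2 1.42.0, fits of only the groups compared, and leaving out each library, with the tested genes and the dispersion trend held and quasi-likelihood dispersions refitted. Leaving out DMSO 18 h replicate 3 and ibufenac bolus 18 h replicate 3 together, and the 6 h minus later comparisons, were chosen after seeing the data.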

Additional observations from a re-analysis of the deposited data

Results flagged for a closer look

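The responses of 4 genes differed between arms over time by the interaction test in edgeR: NFE2L1 (adjusted p = 0.0141), MAFG (adjusted p = 0.0142), SQSTM1 (adjusted p = 0.0229) and KEAP1 (adjusted p = 0.0235). Over all tested genes 22.8% were called. With GC and length trends removed only NFE2L1 remained called, and in limma on FPKM KEAP1, MAFG and SQSTM1 were lost. With no count filter NFE2L1 was lost (adjusted p = 0.0761). Without 1 library at a time, MAFG held in 63 of 63 fits and the other 3 in 62. NFE2L1 was lost without DMSO 18 h replicate 1 (adjusted p = 0.0563), KEAP1 without ibuprofen probe 6 h replicate 1 (adjusted p = 0.0505) and SQSTM1 without ibuprofen bolus 18 h replicate 3 (adjusted p = 0.0578).

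The drug difference as the probe was not the same at 6 h and 12 h for KEAP1 (0.73), SQSTM1 (0.62), MAFG (0.50) and BACH1 (-0.28), on the log2 scale. Beside these calls 21.1% of all genes were called, and with GC and length trends removed none of these members passed. In limma on FPKM KEAP1 and MAFG were lost as well. BACH1 was also lost with no count filter, with only the groups compared and without both 18 h libraries named above. Leaving out each of the 12 libraries kept the call in 12, 11, 10 and 5 fits. For MAFG the drug difference also differed between 6 h and 18 h (0.48, 5.46% of genes called), in 3 of 12 such fits. That call ended with trends removed and in limma on FPKM. The difference of NFE2L1 from DMSO at 6 h minus that at 18 h was 0.42 with photocaged ibufenac (held in 7 of 12 fits, 0.636% of genes called). It was 0.37 with the ibufenac probe (in 12 of 12, 7.98% called). For MAFG with the ibufenac probe the same comparison gave 0.48 (in 5 of 12), from 0.13 at 6 h and -0.35 at 18 h. The part of GC content in these differences was not tested beyond the values given with trends removed.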

How the results depend on the processing

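Counts of member calls depended on the processing. For arms against DMSO averaged over times, 1 call became 3 without a count filter, 2 with the replicate block, 4 with GC and length trends removed, 2 without both 18 h libraries, 3 in DESeq2 and 2 with only the groups compared (1 to 2 leaving out single libraries). At single times 5 became 12 without a filter and 9 in DESeq2 (3 to 7). The averaged drug calls, 0, became 1 with RLE factors, 1 without a filter and 1 in DESeq2 (0 to 1). The single-time drug calls, 4, became 1 with trends removed and 2 in limma (3 to 4), and without a filter they were 5, of which 2 were SQSTM1 in the bolus. The 4 in the probe at 6 h became 1 with trends removed and 2 in limma (3 to 4). Form calls, 4, became 2 in limma (3 to 5). DMSO time calls, 0, became 3 without a filter, 3 with trends removed, and 1 each in limma, in DESeq2, without both 18 h libraries and with only the groups compared (0 to 1). The added comparisons' 8 became 3 with trends removed and 2 in limma (5 to 8), and the interaction's 4 became 1 and 2 (3 to 5). Signs were compared only for members called in the reported fit and, in the probe drug difference at 6 h, for all 6 members. Among these, values that changed sign were NFE2L2 (0.13) and BACH1 (0.13) with trends removed and NFE2L1 in limma (-5e-04), all in the probe drug difference at 6 h, and BACH1 with trends removed (0.11) for 6 h minus 12 h. The cause was not tested. Trend removal and FPKM moved the median of all genes by up to 0.16 and 0.18. Same-numbered replicates of different groups showed little pairing. The median correlation of their deviations from group means was 0.0116 at 6 h, -0.0032 at 12 h and 0.0013 at 18 h. For pairs with other numbers it was -0.0048, 0.001 and -6e-04. Of the 3 numbers, their own matched best in 28 of 63 libraries, and the block changed no other total by over 1.5 times. The sampling of reads alone, at 305.6 or more counts per library, limits the precision least for SQSTM1 and most for NFE2L2. Spread between libraries adds to it, and SQSTM1 had larger standard errors than NFE2L1.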
